A study of Mus musculus with 4 samples.

Results

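Notch1, Notch2, Notch3, Dtx1, Hes1, Nrarp and Il2ra were followed as receptors and direct target genes of Notch signaling, 7 of the 31053 genes counted in thymocytes. They were chosen by name, as 3 receptors and 4 genes known to be transcribed under Notch control. Earlier results of these data were known when they were chosen. Transcripts were counted by droplet-based 3′ single-cell RNA sequencing in 4 thymi of FVB/N mice. The WT mouse and the preleukemic Tal1/Lmo2 mouse were 6 weeks old, and 2 leukemic Tal1/Lmo2 mice, named T-ALL#1 and T-ALL#2 after T-cell acute lymphoblastic leukemia, were 3 months old. Each thymus is 1 library from 1 animal. Per the study's methods, both transgenes are driven by the proximal Lck promoter, which is active in thymocytes. Age and leukemia cannot be told apart in this design, and with 1 WT and 1 preleukemic library no spread between animals is known, so groups were compared by size and not by a test.

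A Notch receptor is cut once it binds a ligand on a neighboring cell, and the freed intracellular part enters the nucleus, where it joins the DNA-binding protein CSL (Rbpj) and a Mastermind coactivator to switch on target genes. In the thymus, Notch1 commits progenitors to the T lineage and carries them through the double-negative stages, which bear neither CD4 nor CD8. The signal normally declines once cells pass the pre-T cell receptor checkpoint and become CD4 and CD8 double-positive. Activated Notch1 is a common driver of T-ALL.

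On GRCm38, by the GENCODE annotation, Notch1 (ENSMUSG00000026923) lies on chromosome 2 from 26457903 to 26516663, Notch2 (ENSMUSG00000027878) on chromosome 3 from 98013527 to 98150361 and Notch3 (ENSMUSG00000038146) on chromosome 17 from 32120820 to 32166852. Dtx1 (ENSMUSG00000029603) lies on chromosome 5 from 120680202 to 120711927 and Hes1 (ENSMUSG00000022528) on chromosome 16 from 30064384 to 30067796. Nrarp (ENSMUSG00000078202) and Il2ra (ENSMUSG00000026770) both lie on chromosome 2, from 25180758 to 25183339 and from 11642807 to 11693193. RefSeq promoters of build GRCm38.p6, each 250 bases before and 50 bases after a gene's start, were given for 6 of the 7 genes, all but Hes1. The CSL core motif TGGGAA, searched on both strands, was in 0 of these 6 promoters and in 8397 of the 32851 promoters of the table (25.6%). The longer GTGGGAA, which contains it, was in 0 of the 6 and in 6.38% of all. The 250 bases upstream of Dtx1 (chr5:120711670-120711919, minus strand) and of Il2ra (chr2:11642542-11642791, plus strand) are shown as searched, 5′ to 3′, because these targets had the largest differences between leukemic and WT double-positive cells after Hes1. No base is in capitals, since none belonged to a match.
Dtx1: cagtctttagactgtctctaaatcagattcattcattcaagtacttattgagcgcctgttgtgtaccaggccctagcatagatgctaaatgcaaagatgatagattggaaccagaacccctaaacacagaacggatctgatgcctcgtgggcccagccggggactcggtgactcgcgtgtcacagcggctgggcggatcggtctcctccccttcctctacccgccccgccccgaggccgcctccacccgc
Il2ra: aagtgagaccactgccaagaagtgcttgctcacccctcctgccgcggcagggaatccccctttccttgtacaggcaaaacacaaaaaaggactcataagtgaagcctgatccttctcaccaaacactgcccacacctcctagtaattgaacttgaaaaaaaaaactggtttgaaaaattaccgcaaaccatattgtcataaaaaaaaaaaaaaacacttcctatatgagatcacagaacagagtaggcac

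Cells were kept with over 500 genes and under 10% mitochondrial UMIs (unique molecular identifiers, each standing for 1 counted transcript), and T-ALL#2 barcodes also needed at least 3416 UMIs. This left 4220 WT, 5576 preleukemic, 5773 T-ALL#1 and 1975 T-ALL#2 cells, with 24042062 to 70745712 UMIs per library and a median of 3800.5, 4888, 8742 and 17581 UMIs per cell. The thymocyte markers Cd3d and Lck were detected in at least 87.8% and 94.9% of the cells of every library. The transgene Tal1 had 0 UMIs in WT and 68.3 to 410 CPM (UMIs per 1000000 UMIs of all genes) in the transgenic libraries. Lmo2, the other transgene, was at 0.915 CPM in WT and 4.48 in the preleukemic library but at 0.368 and 0.276 in T-ALL#1 and T-ALL#2, below WT, so Tal1 followed the labels of the leukemias and Lmo2 did not. Whether the Lmo2 transgene carries the 3′ end that was counted is not given in the sources used here. Xist was at 1380 and 1870 CPM in the WT and preleukemic libraries, which goes against their male labels, and at 1930 CPM in T-ALL#1 (labelled female). In T-ALL#2 (labelled male) it was at 0.0828 CPM, with 4 Y-linked genes at 12.3 to 55.7 CPM, so T-ALL#2 differed in sex from the other 3 animals by these genes. No more than 9 barcodes were shared between any pair of libraries. A level is the summed UMIs of a gene over a set of cells in CPM, followed in brackets by its exact Poisson 95% interval, which covers counting error only.

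Over all kept cells, 6 of the 7 genes were at least 2-fold higher in both leukemias than in WT, and Notch2 was at least 2-fold lower. Of 9731 genes that reached 5 CPM in a compared library, 4.02% were at least 2-fold higher and 13.4% at least 2-fold lower in both leukemias. The median log2 ratio of all genes was -0.34. Scaling by trimmed means (TMM) in place of totals raised T-ALL#1 by 0.31 and T-ALL#2 by 0.55 against WT on the log2 scale, and again 6 of the 7 genes were higher and 1 lower.

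Among the receptors, Notch1, the main receptor of early thymocytes, was at 77.4 (73.9 to 81) CPM in the WT thymus, 144 (141 to 148) in the preleukemic thymus, 405 (400 to 410) in T-ALL#1 and 265 (260 to 270) in T-ALL#2. The 4 intervals did not overlap, and the preleukemic thymus lay between WT and the leukemias. Notch3, a receptor that is itself a target of Notch1 in thymocytes, kept that order at lower levels, with 8.36 (7.24 to 9.6) CPM for WT, 11.9 (10.8 to 13) for the preleukemic library, 38.2 (36.8 to 39.7) for T-ALL#1 and 18.1 (16.7 to 19.5) for T-ALL#2. Notch2, a receptor best known from B cells, ran the other way. It was at 9.28 (8.1 to 10.6) CPM in WT and 8.93 (8.04 to 9.9) in the preleukemic library, which overlap, and at 3.58 (3.15 to 4.05) in T-ALL#1 and 2.65 (2.15 to 3.24) in T-ALL#2. The leukemias were 2.59-fold (2.16 to 3.12) and 3.5-fold (2.74 to 4.5) lower than WT.

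In the preleukemic thymus, Hes1 was lower than in WT, and the other genes tested stayed within the limit. Notch1 was 1.87-fold (1.77 to 1.97) higher than in WT, under the 2-fold limit, and Notch3 1.42-fold (1.2 to 1.68). Hes1, a transcriptional repressor, was 5.06-fold (4 to 6.45) lower, with 11.9 (10.6 to 13.4) CPM in WT and 2.35 (1.9 to 2.87) in the preleukemic library. Dtx1, which encodes the ubiquitin ligase Deltex that binds Notch, was at 19.8 (18.1 to 21.7) and 12.8 (11.7 to 13.9) CPM. Nrarp, a small feedback inhibitor of the Notch complex, had 46 UMIs in WT and 44 in the preleukemic library. Il2ra, which encodes CD25 and marks the double-negative 2 and 3 stages, was at 39.8 (37.4 to 42.5) and 40.5 (38.6 to 42.5) CPM, with overlapping intervals. Hes1 was the 1 gene of 6 tested past the limit, against 5.13% of all genes higher and 5.89% lower. Notch1 passed it as well, so that 2 genes were called, when cells with very many genes were left out.

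In the leukemias the targets stood well above both other thymi. Dtx1 was at 276 (272 to 279) CPM in T-ALL#1 and 136 (133 to 140) in T-ALL#2, Hes1 at 171 (168 to 174) and 114 (110 to 117), and Il2ra at 204 (200 to 207) and 184 (179 to 188). Nrarp stayed the lowest of the targets, at 15.5 (14.6 to 16.4) and 6.4 (5.6 to 7.28) CPM. Scaled by totals, T-ALL#1 was above T-ALL#2 for all 7 genes, with overlapping intervals for Notch2 alone. For Il2ra this order depended on the scaling. With TMM factors of 0.945 for T-ALL#1 and 0.799 for T-ALL#2, T-ALL#2 was the higher. Among cells without a Cd4 or Cd8 transcript, Il2ra was also higher in T-ALL#2, at 177 against 78.9 CPM. Dtx1, Hes1, Nrarp and Il2ra were at least 2-fold above the preleukemic library in both leukemias, 4 of 7 genes against 3.44% of all genes, and Notch2 was at least 2-fold below it, against 11.8%. The largest of these ratios was that of Hes1, 72.6-fold (59.4 to 89.7) and 48.4-fold (39.5 to 59.9). Notch1 had ratios of 2.81 (2.73 to 2.89) and 1.84 (1.78 to 1.9) and Notch3 of 3.22 (2.92 to 3.55) and 1.52 (1.35 to 1.72), so T-ALL#2 missed the limit for both receptors. Under TMM scaling, which raised the leukemias by 0.26 and 0.5 against the preleukemic library, both receptors passed.

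WT transcripts of Hes1 and Il2ra came from few cells. The 43 WT cells with most UMIs of a gene held 92% of all Hes1 UMIs and 74.9% of all Il2ra UMIs. For Dtx1 they held 31.9% and for Notch1 22.6%. In T-ALL#1 the 58 top cells held 7.07%, 6.87%, 4.53% and 5.14% of these 4 genes in that order. Hes1 was detected in 62 WT cells (1.47%) and in 3788 T-ALL#1 cells (65.6%). A cell with Il2ra held on average 6.65 UMIs of it in WT, and 2.93, 3.78 and 4.42 in the preleukemic library and the 2 leukemias. The higher leukemic level of Il2ra thus lay in more cells with the transcript, and a WT cell that had it held more UMIs than a leukemic one.

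Depth per cell differed between the libraries, so shares of cells were also taken after thinning each cell to 2000 UMIs, which left out 991 WT, 350 preleukemic, 94 T-ALL#1 and 0 T-ALL#2 cells. Hes1 was then detected in 0.929% (0.628 to 1.32) of WT, 0.44% (0.279 to 0.66) of preleukemic, 31.3% (30.1 to 32.5) of T-ALL#1 and 21% (19.2 to 22.8) of T-ALL#2 cells, with exact binomial 95% intervals (1.47%, 0.933%, 65.6% and 65.5% unthinned). Notch1 was detected in 10.1%, 19.7%, 54.4% and 38.7% of the thinned cells in that order (21.7%, 41.9%, 87.2% and 88.3% unthinned), Dtx1 in 2.88%, 2.1%, 49.2% and 26.5% (7.32%, 6.33%, 82.8% and 79.3% unthinned) and Il2ra in 2.69%, 4.19%, 36.5% and 26.8% (3.41%, 10.1%, 66% and 76.3% unthinned). The leukemias were above the other thymi in each of these shares. Notch2 was detected in 1.77%, 1.91%, 0.634% and 0.709% of thinned cells (4.69%, 6.03%, 4.02% and 4.61% unthinned), and its leukemic shares were the lowest in either case, by a smaller margin unthinned. Among the 12 B-like or myeloid-like cells of T-ALL#1, at a median of 4186 UMIs, Notch1 was detected in 0, Hes1 in 1, Dtx1 in 1 and Il2ra in 2, too few cells to set the share that free RNA gives. Barcodes of T-ALL#2 with at most 100 UMIs together held Hes1 at 95.3 CPM and Notch1 at 262 CPM, and the part of free RNA in the T-ALL#2 shares was not tested.

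Cells were then divided by the coreceptor transcripts detected in them, into those with neither Cd4 nor Cd8a or Cd8b1 (the none gate), Cd8 only, Cd4 only and both. The gates stand in for double-negative, CD8, CD4 and double-positive cells, but a cell whose coreceptor transcripts were not sampled falls into a lower gate. The none gate held 325 WT (7.7%), 3328 preleukemic (59.7%), 447 T-ALL#1 (7.74%) and 300 T-ALL#2 cells (15.2%). The both gate held 2325, 219, 2634 and 320 cells. When the gates were set on cells thinned to 2000 UMIs, the none gate held 22.9%, 71.4%, 32.5% and 61.5% of the cells.

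In WT, Notch1, Hes1 and Il2ra were highest in the none gate and low where both coreceptors were detected. Hes1 was at 72.1 (60.9 to 84.7) CPM in the none gate, 17.1 (13.8 to 21) with Cd8 only, 3.15 (1.72 to 5.28) with Cd4 only and 2.7 (1.86 to 3.79) with both, 26.7-fold (18.2 to 40.2) lower than with neither. Il2ra was at 244, 46.7, 19.8 and 9.9 CPM in these gates, 24.6-fold (20.2 to 30.3) lower with both than with neither. Notch1 was at 175, 91.7, 56.2 and 62.4 CPM, a smaller difference of 2.8-fold (2.47 to 3.18). Its transcript was thus still present in double-positive WT cells in which Hes1 and Il2ra were at their lowest. Dtx1 was at 43.4, 25.6, 31.5 and 9.16 CPM and Notch3 at 33.6, 6.21, 1.35 and 7.61 CPM, and both were also highest in the none gate. Notch2 stayed between 7.61 and 11.9 CPM, and Nrarp was at or below 3.41 CPM.

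In the preleukemic library the gates differed less. Notch1 was at 136 (131 to 141) CPM in the none gate, 155 (149 to 160) with Cd8 only, 170 (123 to 230) in the 28 cells with Cd4 only and 131 (116 to 147) with both, a ratio of both to none of 0.963 (0.85 to 1.09). Il2ra did differ, with 59.9 (56.6 to 63.4) CPM in the none gate and 6.89 (3.86 to 11.4) in the both gate. Notch3 was higher in the both gate than in the none gate, at 15.6 against 8.31 CPM, a ratio of 1.88 (1.26 to 2.73). Hes1 was low throughout, with 70 UMIs in the none gate and 4 in the both gate. Compared with the WT none gate, which need not hold the same kinds of cells, 4 genes were at least 2-fold lower and 0 higher. Of all genes, 7.7% were lower and 8.23% higher. Hes1 was 21-fold (15.7 to 28.3) lower, Il2ra 4.07-fold (3.66 to 4.52), Notch3 4.05-fold (3.01 to 5.38) and Dtx1 3.59-fold (2.78 to 4.59). With gates set on thinned cells 2 genes were lower. In the both gate, Notch1 was 2.1-fold (1.82 to 2.41) and Notch3 2.05-fold (1.34 to 3.07) higher than in WT, with 0 of 5 genes lower, against 3.79% higher and 6.27% lower. At a mitochondrial limit of 5%, 0 genes passed in that gate.

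In the leukemias the order of the gates was turned against WT for Notch1, Notch3 and Dtx1. For Notch3 it was already turned in the preleukemic library, at a ratio of 1.88. Notch1 was at 267 (255 to 279) CPM in the none gate and 497 (488 to 505) in the both gate of T-ALL#1, and at 214 (202 to 226) and 306 (290 to 322) in T-ALL#2. Dtx1 was at 132 and 396 CPM in T-ALL#1, a ratio of 3 (2.81 to 3.21), and at 97.9 and 191 in T-ALL#2, a ratio of 1.95 (1.75 to 2.17). Notch3 had ratios of 2.17 (1.85 to 2.56) and 1.72 (1.28 to 2.32). The double-positive gate, where these genes were low in WT, was thus the higher of the 2 gates in both tumors. Il2ra differed between the tumors, at 78.9 and 317 CPM in T-ALL#1 and 177 and 183 in T-ALL#2, ratios of 4.02 (3.7 to 4.37) and 1.03 (0.942 to 1.13). Hes1 had ratios of 1.66 (1.55 to 1.78) and 1.09 (0.964 to 1.23), and Nrarp of 1.18 (0.953 to 1.47) and 0.532 (0.296 to 0.92). The interval of Hes1 in T-ALL#2 and that of Nrarp in T-ALL#1 include 1.

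**Figure D1:**
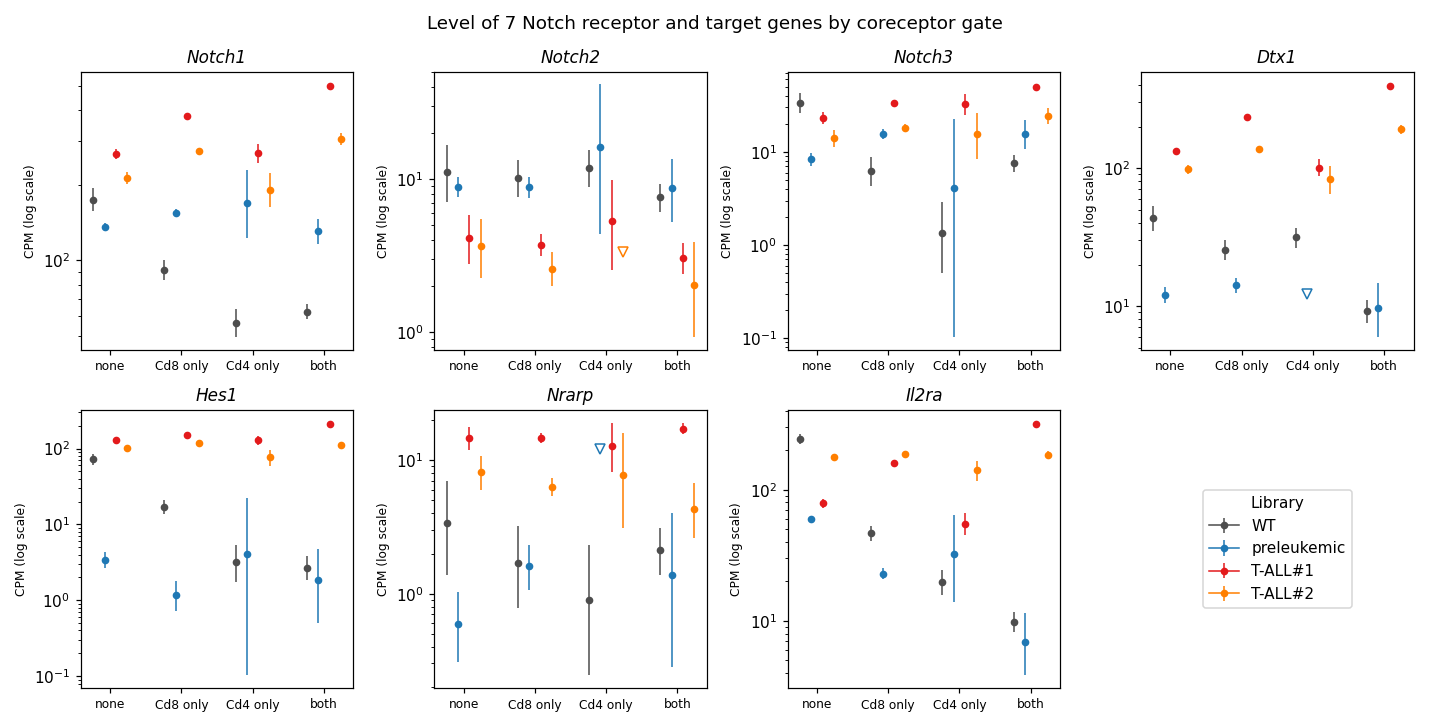
Level of each of the 7 genes (CPM, log scale) by coreceptor gate in the 4 libraries, as points with exact Poisson 95% intervals, with open triangles at the floor of 3 UMIs where a gene had 0 UMIs. WT Hes1 and Il2ra go from 72.1 and 244 CPM in the none gate to 2.7 and 9.9 CPM in the both gate, where the leukemias are at 112 to 317 CPM for these 2 genes.

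**Figure D2:**
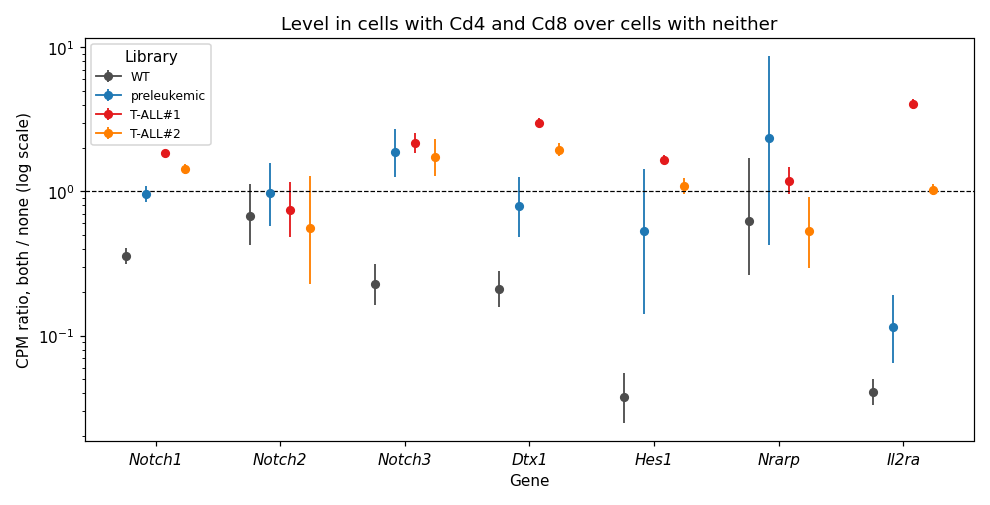
Level in the both gate over that in the none gate (ratio, log scale) of each gene in each library, with 95% intervals that cover counting error. WT lies at 0.0374 for Hes1 and 0.0406 for Il2ra, and both leukemias lie above 1 for Notch1, Notch3 and Dtx1. The preleukemic library also lies above 1 for Notch3, at 1.88.

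The gap between leukemia and WT was wide in the both gate. There Hes1 was 78.8-fold (56 to 115) and 41.4-fold (29.1 to 60.8) above WT in T-ALL#1 and T-ALL#2, Dtx1 43.2-fold (35.9 to 52.5) and 20.9-fold (17.1 to 25.6), Il2ra 32-fold (26.8 to 38.7) and 18.5-fold (15.3 to 22.6), and Notch1 7.96-fold (7.4 to 8.57) and 4.9-fold (4.48 to 5.36). In all, 6 of 7 genes were at least 2-fold higher in both leukemias, against 4.45% of all genes, and Notch2 was lower, against 10.1%. In the none gate, 2 genes were higher, Dtx1 and Nrarp, against 5.45%, and Notch2 was lower, against 17.8%. Hes1 there was 1.78-fold (1.5 to 2.13) and 1.43-fold (1.19 to 1.72) above WT, and it passed the limit under TMM scaling, with the mean of CPM over cells, at a mitochondrial limit of 5% and with gates on thinned cells. Il2ra there was 3.09-fold (2.74 to 3.49) and 1.38-fold (1.24 to 1.54) below WT, a direction that turned to a ratio of 1.35 over both leukemias with gates set on thinned cells and of 1.03 at a mitochondrial limit of 5%. Notch3 in the none gate was 1.45-fold (1.08 to 1.93) and 2.39-fold (1.71 to 3.32) below WT, against its direction over all cells. It turned to a ratio of 1.49 over both leukemias with gates set on thinned cells. Notch1 in the none gate was 1.52-fold (1.36 to 1.71) and 1.22-fold (1.08 to 1.37) above WT. With gates on thinned cells, 4 genes were higher and 1 lower in the none gate.

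Cells with at least 2000 UMIs were also divided by whether Il2ra was detected after thinning to 2000 UMIs. Within the WT none gate, the 36 cells with Il2ra by this measure held 261 (215 to 314) CPM of Hes1 and 528 (461 to 601) of Notch1. The 232 cells without Il2ra held 22.7 (15.8 to 31.5) and 81.6 (67.9 to 97.1). In the leukemias, the none gate had 45 (T-ALL#1) and 83 (T-ALL#2) cells with Il2ra. They held 140 (115 to 168) and 118 (103 to 135) CPM of Hes1, below WT. Notch1, at 323 and 240 CPM, and Notch3, at 35.2 and 14.7 against 125 in WT, were also lower. Dtx1, at 127 CPM in WT, was at 236 and 111, and Nrarp, with 1 UMI in WT, at 25.5 and 8.7. The leukemic none-gate cells without Il2ra held 124 and 96 CPM of Hes1, above WT. In the both gate of T-ALL#1, the 1278 cells with Il2ra held 282 (271 to 293) CPM of Hes1 and the 1322 without it 170 (164 to 177). WT cells of the both gate without it held 2.31 (1.51 to 3.39) CPM of Hes1. Cells without Il2ra by this measure can hold it in their full counts, in which 2019 of all 2634 T-ALL#1 cells of the both gate had a UMI of Il2ra.

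Gates of a library come from 1 animal, so they were compared within libraries by the quasi-likelihood test of edgeR, on UMIs summed per library and gate, with the library as a block. Between the both and the none gate, 0 of the 7 genes were called, against 6.62% of 11436 genes. By edgeR 0 of the 7 had an unadjusted p under 0.05, and DESeq2 also called 0. The log2 differences ran from -1.14 (SE 0.873, adjusted p = 0.498) for Il2ra to 0.35 (SE 0.516, adjusted p = 0.781) for Dtx1. Without WT, Notch3 was higher in the both gate by 0.95 (adjusted p = 0.00637). Between the Cd8 only and the none gate edgeR called 0 of the 7, with 0 at an unadjusted p under 0.05 and 0 by DESeq2, against 0.166% of all genes. The ratios of Notch1, Notch3 and Dtx1 lay below 1 in WT and above 1 in both leukemias, and these tests average over the libraries.

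Whether the difference between the gates itself differed was tested in the same edgeR model, as both minus none in the leukemic libraries less the same in the WT and preleukemic libraries. The test called 3 of the 7, all higher in leukemia, against 3.66% of all genes called higher and 5.09% lower. The log2 difference was 4.84 (SE 0.546, adjusted p = 0.000377) for Hes1, 5.23 (SE 0.94, adjusted p = 0.0201) for Il2ra and 2.82 (SE 0.569, adjusted p = 0.0199) for Dtx1. Notch1, at 1.43 (SE 0.51, adjusted p = 0.146), Notch3, at 1.49 (SE 1.05, adjusted p = 0.473), Nrarp, at -0.69 (SE 0.712, adjusted p = 0.626), and Notch2, at -0.39 (adjusted p = 0.717), did not pass. The not leukemic side joins 1 WT and 1 preleukemic animal whose gates differed. Without WT the 3 calls were lost, at 1.2 (adjusted p = 0.439) for Hes1, 4.05 (adjusted p = 0.273) for Il2ra and 1.46 (adjusted p = 0.059) for Dtx1, and Notch1 passed at 0.61 (adjusted p = 0.00559). Without the preleukemic library Notch1 passed at 2.21 (adjusted p = 1.65e-07) and Notch3 at 3.14 (adjusted p = 1.68e-06), and Il2ra did not, at 5.72 (adjusted p = 0.111). Without T-ALL#1 the adjusted p was 0.316 for Dtx1 and 0.0785 for Il2ra, and without T-ALL#2 it was 0.226 for Dtx1. By DESeq2 the calls of Hes1, at 3.43 (adjusted p = 0.0737), and Dtx1, at 2.42 (adjusted p = 0.0812), were lost, while Il2ra passed at 5.05 (adjusted p = 1.5e-05) and Notch1 at 1.47 (adjusted p = 0.0286). Dtx1 was also lost when all genes with at least 1 UMI were tested (adjusted p = 0.0597).

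The share of cycling cells moved with these gates, in opposite directions. A cell counted as cycling when 40 cell cycle genes took at least 0.5% of its UMIs. In WT and the preleukemic library 4.92% and 8.05% of the none gate and 16% and 33.8% of the both gate were cycling. In T-ALL#1 and T-ALL#2 it was 48.5% and 44.7% of the none gate and 24.9% and 22.2% of the both gate. In not cycling cells alone, the difference tested above was 4.53 (adjusted p = 0.000241) for Hes1, 5.03 (adjusted p = 0.278) for Il2ra and 2.96 (adjusted p = 0.294) for Dtx1. The sizes were near those in all cells, and of the 3 calls that of Hes1 remained. Of all genes, 21 were called in not cycling cells, against 1033 in all cells. Among not cycling cells, the preleukemic both gate held 0 UMIs of Hes1 and 3 of Il2ra, so these sizes rest on few counts there. Median depth moved with the gates too, at 4740 and 2946 UMIs per cell in the none and both gates of WT, 4251.5 and 6574 in preleukemic cells, 15892 and 5461.5 in T-ALL#1 and 21168 and 10492 in T-ALL#2, and its part in the result was not tested.

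Cycling cells had less Dtx1 than not cycling cells in all 4 libraries, and more Nrarp in 3 of the 4. Dtx1 was at 12.4 against 24.2 CPM in WT, 9.58 against 14.6 in preleukemic cells, 183 against 433 in T-ALL#1 and 96 against 179 in T-ALL#2, lower in cycling cells in 4 of 4 libraries. By edgeR the log2 difference was -0.77 (SE 0.148, adjusted p = 0.0056), against 27.5% of all genes called lower. Nrarp was at 2.95 against 1.31 CPM in WT, 18.7 against 9.96 in T-ALL#1 and 7.89 against 4.85 in T-ALL#2, and at 0.753 against 1.26 in the preleukemic library on 11 and 33 UMIs. Its difference was 0.78 (SE 0.261, adjusted p = 0.0406) by edgeR, against 22.5% called higher. This call was lost without WT (adjusted p = 0.0793), T-ALL#1 (0.232) or T-ALL#2 (0.0808). The other 5 genes did not pass. Notch1 had cycling to not cycling ratios of 1.41 (1.28 to 1.54) in WT and 1.17 (1.11 to 1.23) in the preleukemic library, and of 0.723 (0.706 to 0.74) and 0.89 (0.855 to 0.926) in the leukemias. Il2ra had ratios of 0.33 (0.275 to 0.392) in WT, 1.32 (1.19 to 1.45) in the preleukemic library and 0.399 (0.386 to 0.413) and 0.868 (0.827 to 0.911) in the leukemias. Without the preleukemic library, Il2ra passed at -0.84 (adjusted p = 0.0436) and Hes1 at -0.47 (adjusted p = 0.0467). Cycling cells held more UMIs, with medians of 13969 to 25876.5 per library against 3349.5 to 12876.

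**Figure D3:**
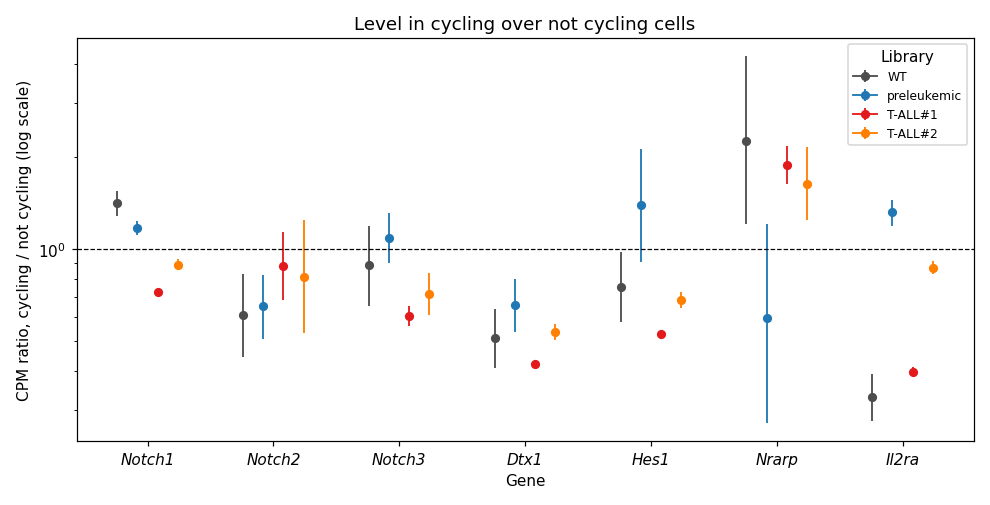
Level in cycling over that in not cycling cells (ratio, log scale) of each gene in each library, with 95% intervals that cover counting error. Dtx1 lies below 1 in every library, and Nrarp lies above 1 in WT, T-ALL#1 and T-ALL#2.

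Single leukemic cells held several of the genes at once, counted over the 7 genes without Notch2, the gene that was lower in the leukemias. The 6 genes counted were those at least 2-fold higher in both leukemias than in WT. Higher shares than in WT were thus already given by the levels of the single genes. In cells thinned to 2000 UMIs, at least 2 of the genes were detected in 1.83% (1.39 to 2.35) of WT and 3.2% (2.74 to 3.71) of preleukemic cells, and in 57% (55.7 to 58.3) of T-ALL#1 and 33.8% (31.7 to 35.9) of T-ALL#2 cells. In WT these cells lay mostly outside the double-positive gate, with 10.1% of the none gate (27 of 268 cells) and 0.478% of the both gate (8 of 1672). In T-ALL#1 the order was turned, with 25.6% of the none gate and 70.2% of the both gate. T-ALL#2 had 27.7% (22.7 to 33.1) and 35.9% (30.7 to 41.5), which overlap. At least 3 of the genes were detected in 24 WT, 9 preleukemic, 1786 T-ALL#1 and 223 T-ALL#2 cells.

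Co-detection was read as the number of thinned cells with a UMI of both genes over the number expected from the 2 shares in each gate, for pairs with at least 5 expected cells. It describes cells of 1 library that share free RNA. In WT 3 of 21 pairs could be read. Notch1 and Il2ra were found together in 36 WT cells where 10.4 were expected (ratio 3.47), Notch1 and Dtx1 in 18 where 10.3 were (ratio 1.75), and Notch1 and Notch2 in 4 where 5.79 were (ratio 0.691). In cells thinned to 4000 UMIs these ratios were 2.26, 1.21 and 1.22, so that the last turned, and at a mitochondrial limit of 5% that of Notch1 and Dtx1 was 1.11 and the other 2 had under 5 expected cells. Hes1 and Il2ra had under 5 expected cells in WT, so no ratio was read for them. Over all gates together, 21 of the 30 WT cells with Hes1 also held Il2ra (70.0%), against 2.06% of those without Hes1. Both genes were highest in the WT none gate, so these shares also hold the difference between gates. In the preleukemic library 4 of 21 pairs could be read, of which 3 lay above 1, and the lowest ratio was 0.753. Notch1 went with Il2ra there at a ratio of 1.81, with Dtx1 at 1.77 and with Notch3 at 1.54. At 4000 UMIs these were 1.42, 1.4 and 1.57. In T-ALL#1 15 of 19 pairs and in T-ALL#2 13 of 15 lay above 1, at medians of 1.13 and 1.19. The ratio cannot exceed about 1 over the larger share of cells, so ratios of libraries with unlike shares were not compared. Dtx1 and Il2ra reached 1.27 in T-ALL#1, where 50.4% of cells with Dtx1 and 23.1% of those without it held Il2ra. Dtx1 and Hes1 reached 1.29 in T-ALL#2, with 143 cells observed.

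**Figure D4:**
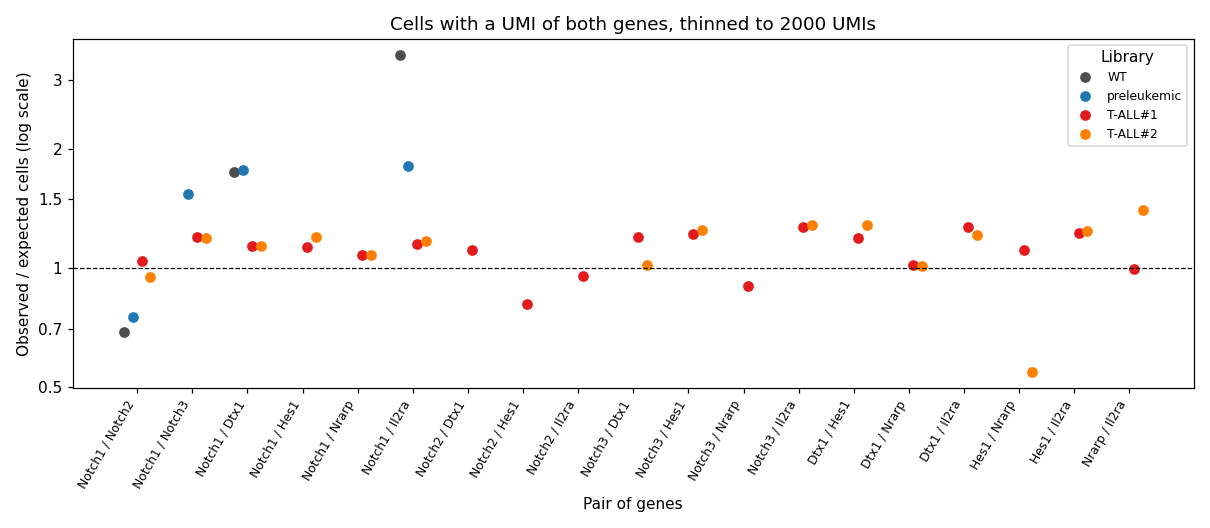
Observed over expected number of cells with a UMI of both genes (ratio, log scale) for each pair with at least 5 expected cells, by library, in cells thinned to 2000 UMIs. Leukemic pairs lie between 0.547 and 1.4 and WT pairs between 0.691 and 3.47, and the share of cells with a gene limits how high its ratios can be.

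Genes with a like pattern were found by Pearson's r of log2(CPM + 1) over the 16 sums of library and gate, which share libraries and depth, among 5785 genes with a mean of at least 20 CPM. For Il2ra the most like gene was another of the 7, with Hes1 (0.867), Mpzl2 (0.861) and Syngr2 (0.848). For Hes1 they were Syngr2 (0.971), 2410015M20Rik (0.94) and Arhgef10l (0.928), and for Notch1 Adat2 (0.916), Mpzl2 (0.908) and Bola1 (0.906). For Dtx1 they were Grhpr (0.951), Tmem147 (0.936) and Mrps18b (0.924), for Nrarp Cenpb (0.972), Eif3b (0.958) and Mrpl38 (0.951), for Notch3 Uxt (0.903), Napa (0.87) and Hdgfl3 (0.853) and for Notch2 Uhmk1 (0.945), Trim30a (0.941) and Cpne3 (0.932). Among the 7, r was highest between Dtx1 and Nrarp (0.888), and Notch2 had a negative r with each of the other 6 (-0.683 to -0.482).

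Of 46 other genes of the pathway most were not called. Between the preleukemic library and WT, 1 of 33 measured genes was higher and 4 were lower, against 5.13% and 5.89% of all genes. Against the preleukemic library 2 of 34 were higher and 3 lower in both leukemias (3 and 2 under TMM scaling), against 3.44% and 11.8% of all genes. Against WT it was 2 and 3 (4 and 3 under TMM scaling), with 4.02% and 13.4% of all genes. These counts require both leukemias, and T-ALL#2 without T-ALL#1 gave 14 and 17 calls. The 5 ligands and the receptor Notch4 were below 5 CPM in every library. Of the 8 measured genes of receptor cleavage, Furin, which cuts the receptor as it matures, lay 2.3-fold (T-ALL#1) and 2.71-fold (T-ALL#2) under its preleukemic level. Of the 5 genes of sugar transfer, Lfng, which tunes the receptor's response to ligands, was lower at each step, going from 37.9 CPM in WT to 7 in preleukemic cells and to 1.37 and 0.248 in the leukemias. Of the 8 genes of the nuclear complex, the coactivator Maml3 lay 3.4-fold over WT in preleukemic cells, at 31 against 9.11 CPM, and was at 26.3 and 25.3 CPM in the leukemias. Maml2, a related coactivator, lay 2.68-fold and 4.88-fold under its preleukemic level in the leukemias. Of 6 measured genes of turnover and trafficking, 0 were called.

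Other targets were measured as well. Heyl, a repressor related to Hes1, had 4 UMIs in WT and 13 in the preleukemic library, and was at 30.2 and 20.3 CPM in the leukemias, 95-fold and 63.9-fold above the preleukemic library. Ptcra, the pre-T cell receptor alpha chain, lay 5-fold under WT in preleukemic cells, and the leukemias were 20.3-fold and 2.15-fold above that level. Against the 43.5 CPM of WT the leukemias parted. T-ALL#1, at 177 CPM, was 4.06-fold higher and T-ALL#2, at 18.7 CPM, 2.33-fold lower. Il7r, the receptor of interleukin 7, lay 3.37-fold under WT in preleukemic cells. Furin had a preleukemic to WT ratio of 1.89, and Igf1r, a growth factor receptor, had leukemic to preleukemic ratios of 2.28 and 1.7, all short of a call. Heyl had a preleukemic to WT ratio of 1.91, but it was below 5 CPM in both libraries and could not be called there.

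Between the both and the none gate, edgeR called 3 of 37 pathway genes higher and 3 lower, against 6.62% of all genes in either direction, with a median log2 difference of -0.06, against -0.009 for all genes. Tcf7, a factor of the T lineage, was higher in the both gate by 0.57 (SE 0.103, adjusted p = 0.00481), Fbxw7, which marks freed Notch for decay, by 0.46 (SE 0.118, adjusted p = 0.0323) and the acetyltransferase Ep300 by 0.34 (SE 0.0947, adjusted p = 0.0421). Lfng, at -1.92 (SE 0.302, adjusted p = 0.00186), Igf1r, at -1.02 (SE 0.266, adjusted p = 0.0394), and the T-lineage factor Gata3, at -0.75 (SE 0.148, adjusted p = 0.00767), were lower. Over the alternatives the adjusted p reached 0.742 for Tcf7, 0.873 for Gata3 and 1.0 for each of the other 4. Between the Cd8 only and the none gate edgeR called 0 of 37. The difference between the gates was higher in leukemia for 4 of 37 genes and lower for 0, against 3.66% and 5.09% of all genes, with a median of 0.38 against 0.079. In cycling cells 16 of 39 genes were lower and 0 higher, against 27.5% and 22.5% of all genes, with a median of -0.33 against -0.102 for all genes.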

How the data were processed

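UMI counts per gene and barcode were used as deposited. The authors made these counts with Cell Ranger (3.0.2 for WT, preleukemic and T-ALL#1, 4 for T-ALL#2, per the file headers) on build mm10 (submitters' processing notes), and the T-ALL#2 table holds every barcode, without cell calling. Which 10x chemistry each library used is not given in the sources used here. Cells were kept with over 500 genes and under 10% mitochondrial UMIs. For T-ALL#2, barcodes also needed 3416 UMIs, the 99th percentile of the top 10000 barcodes divided by 10. No doublet caller was run, and an upper limit on genes was an alternative. Depth was 24042062, 40851235, 70745712 and 36236569 UMIs for WT, preleukemic, T-ALL#1 and T-ALL#2.

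UMIs were summed per library and gate as CPM with exact Poisson intervals, and shares of cells were given exact binomial intervals. A difference between libraries was called at 2-fold among genes with at least 5 CPM, in both leukemias where they were compared. Sums were tested with edgeR 4.0.16 (TMM, filterByExpr, robust glmQLFit, Benjamini-Hochberg adjusted p under 0.05, sums of at least 20 cells) under R 4.3.3, with the library as a block since all gates of a library come from 1 animal. In the check of this pairing, both and none deviated together with r of 0.6529 to 0.8018, and cycling states with 0.7742 to 0.8498. DESeq2 1.42.0 was an alternative, beside other cell filters, scalings, gates, limits and leaving out each library. The SE beside an edgeR log2 difference was taken as its absolute size over the square root of the test's F statistic. It is not given by edgeR itself and need not match the p. The edgeR step was tested on simulated data.

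The members and lists were chosen with earlier results of these data known. Named were all 7 members, up to 3 pathway genes of at least 20 CPM with the largest ratio in each direction, the 3 genes most like each member, and pathway genes called by edgeR.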

Additional observations from a re-analysis of the deposited data

Results flagged for a closer look

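The difference between the both and the none gate itself differed between leukemic and not leukemic libraries for 3 of the 7 genes by edgeR, with log2 differences of 4.84 for Hes1, 5.23 for Il2ra and 2.82 for Dtx1. Over the alternatives the adjusted p ran from 5.53e-07 to 0.613 for Hes1, from 1.5e-05 to 0.278 for Il2ra and from 0.000409 to 0.374 for Dtx1, and all 3 calls were lost without WT. The same test called 4 pathway genes, the coactivators Maml1, with a difference of 1.18 (SE 0.278, adjusted p = 0.0134), and Maml3, with 1.4 (SE 0.333, adjusted p = 0.0156), the Notch inhibitor Numb, with 1.24 (SE 0.335, adjusted p = 0.0298), and the protease Furin, with 1.03 (SE 0.289, adjusted p = 0.035). All 4 calls were lost under some alternatives, at adjusted p of up to 0.699 for Maml1, 0.717 for Maml3, 0.787 for Numb and 0.918 for Furin over the alternatives, which were run with edgeR and DESeq2.

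The T-ALL#2 table also held 1187985 barcodes with at most 100 UMIs, which no comparison used. Together they had 1814932 UMIs, and all 7 genes were above the floor of 3 UMIs in them. Notch1 was at 262 CPM, Notch2 at 5.51, Notch3 at 28.1, Dtx1 at 141, Hes1 at 95.3, Nrarp at 9.92 and Il2ra at 133. The same genes were at 265, 2.65, 18.1, 136, 114, 6.4 and 184 CPM in the T-ALL#2 cells.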

How the results depend on the processing

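Between the preleukemic library and WT 1 of the 7 genes was called over all cells, 2 with an upper limit on genes per cell, 2 with the mean of CPM over cells and 3 at a 1.5-fold limit. At that limit 9, 8 and 11 pathway genes were called for preleukemic over WT, leukemic over preleukemic and leukemic over WT, in place of 5 in each, and without a leukemic library the last 2 gave 6 to 14 and 7 to 17. Of the 7 genes, without a leukemic library 5 to 7 were called against the preleukemic library and 7 against WT, 5 and 4 in the none gate, and 5 to 7 and 6 to 7 in the both gate. With gates set on thinned cells, 2 in place of 4 genes were called for preleukemic over WT in the none gate and 5 in place of 3 for leukemic over WT, and Dtx1 in the preleukemic both gate reversed to a ratio of 0.479. At a mitochondrial limit of 5%, 0 in place of 2 were called in the preleukemic both gate.

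All gates of a library come from the same animal, so the library was a replicate block, and without the block 3 in place of 757 genes were called between both and none, 2 in place of 19 between Cd8 only and none, 17 in place of 1033 for the leukemic difference and 1521 in place of 6317 for cycling, with 0 of the 7 in the leukemic difference and 0 in cycling. Without 1 library the 4 counts were 261 to 1186, 8 to 57, 265 to 2300 and 4216 to 6476, with 0 to 1, 0, 1 to 4 and 1 to 4 of the 7. Gates on thinned cells gave 3706, 106 and 486 calls for the first 3. In not cycling cells, an alternative chosen after seeing the data, they were 1500, 48 and 21, with 1 of the 7 in the last. Both against none gave 478 at a mitochondrial limit of 5%, and Cd8 only against none gave 43 by DESeq2, 80 over all genes with a UMI and 3 with Cd8a alone. At a cycling limit of 1%, 4 of the 7 were called. Pairs above 1 were 6 of the 7 read in WT and 7 of 10 in the preleukemic library at 4000 UMIs. They replaced 2 of 3 and 3 of 4, and at a mitochondrial limit of 5% WT had 1 of 1. The causes were not tested. Few UMIs limit Hes1 and Nrarp in WT and the preleukemic library.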
